A study of Mus musculus with 17 samples.

Results

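Whole-cell RNA of mouse embryonic stem cells was compared between cells that had received an siRNA against Nmd3 and cells that had received an siRNA against Gnl3. The libraries were chosen by fraction and siRNA: 6 of the 17 libraries of the series, 3 biological replicates for each siRNA. Beside them, 3 whole-cell libraries of cells with a scramble siRNA served as the reference. The cells were Rpl31-FTA E14Tg2a.4 cells, a line whose Rpl31, a protein of the large ribosomal subunit, is fused to a FLAG-TEV-AviTag, grown in serum with leukemia inhibitory factor. In every culture, scramble included, the proximity biotinylation system ALIBi was directed to the endoplasmic reticulum (ER), and the whole-cell RNA is an aliquot of the lysate kept back before biotinylated ribosomes were purified. All cultures derive from this 1 line, polyA RNA was sequenced, and the labels used here give neither the siRNA sequences nor the time between transfection and lysis. The labels call the replicates biological without naming separate cultures, so p-values measure the spread between these samples.

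Nmd3 binds the large (60S) ribosomal subunit in the nucleus and carries it through the nuclear pore together with the exportin Xpo1, after which Lsg1 and other cytoplasmic factors release it. Gnl3, also called nucleostemin, is a GTPase of the nucleolus that is abundant in stem cells and acts in the processing of ribosomal RNA and in genome protection. Disturbed ribosome assembly is known to free the ribosomal proteins Rpl5 and Rpl11, which bind Mdm2 and stabilise the transcription factor p53. The transcription factor ATF4 raises genes of amino acid synthesis, transport and tRNA charging when the initiation factor eIF2 is phosphorylated by one of several kinases, among them Gcn2.

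The 9 whole-cell libraries held 15.2 to 22.8 M gene counts. The submitters' sample descriptions state that Gnl3 replicate 3 and Nmd3 replicate 2 were left out of their own study as outliers on principal components, and both also stood apart here. Mitochondrial RNA was 6.14% of gene counts in Gnl3 replicate 3 and 0.769% in Nmd3 replicate 2, against 1.86% to 2.03% in the scramble libraries, Gnl3 replicates 1 and 2 and Nmd3 replicate 3. Nmd3 replicate 1, which the submitters kept, was also low at 1.15%. The biological coefficient of variation was 0.0589 without the pair that stood apart and 0.316 with it. The fit of the other 7 libraries (2 Nmd3, 2 Gnl3, 3 scramble) therefore leads here. The fit of all 9 stands beside it for the targets, the call counts and some lists. Embryonic stem cell markers were present in all 9 libraries: Pou5f1 ranged from 568 to 1400 counts per M gene counts (CPM) and Sox2 from 316 to 504 CPM.

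Each siRNA lowered its own target in the 7 libraries. The other target differed from scramble by -0.05 on the log2 scale (Nmd3 after Gnl3 siRNA, SE 0.0591) and by 0.04 (Gnl3 after Nmd3 siRNA, SE 0.0718), and neither difference passed the test. Nmd3 (ENSMUSG00000027787.15) stood at 43.7 and 43.2 CPM in Nmd3 siRNA replicates 1 and 3, and at 72.3 CPM in the left-out replicate 2. The Gnl3 siRNA libraries gave 152 and 142 CPM of Nmd3 in replicates 1 and 2 and 274 CPM in the left-out replicate 3. With scramble siRNA the 3 libraries had 153, 154 and 150.2 CPM of Nmd3. No Nmd3 siRNA library reached the level of any other library. Between the siRNAs Nmd3 fell by 1.76 on the log2 scale (SE 0.0706, adjusted p = 1.06e-17 in the edgeR quasi-likelihood test), which is a 3.4-fold lower level. Gnl3 (ENSMUSG00000042354.8) had 70.2 and 54.2 CPM in Gnl3 siRNA replicates 1 and 2 and 88.2 CPM in the left-out replicate 3. In Nmd3 siRNA libraries it had 280 and 268 CPM in replicates 1 and 3 and 276 CPM in replicate 2, close to the 272, 270.1 and 256 CPM of scramble. Gnl3 was 4.39-fold higher after Nmd3 than after Gnl3 siRNA, a log2 change of 2.13 (SE 0.0858, adjusted p = 5.77e-13). Gnl3 overlaps Pbrm1 on the other strand, and Pbrm1 differed by -0.01 on the log2 scale (adjusted p = 0.983). In the fit of all 9 libraries the changes were -1.69 for Nmd3 (SE 0.392, adjusted p = 0.562) and 2.05 for Gnl3 (SE 0.247, adjusted p = 0.195), so neither passed.

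**Figure D1:**
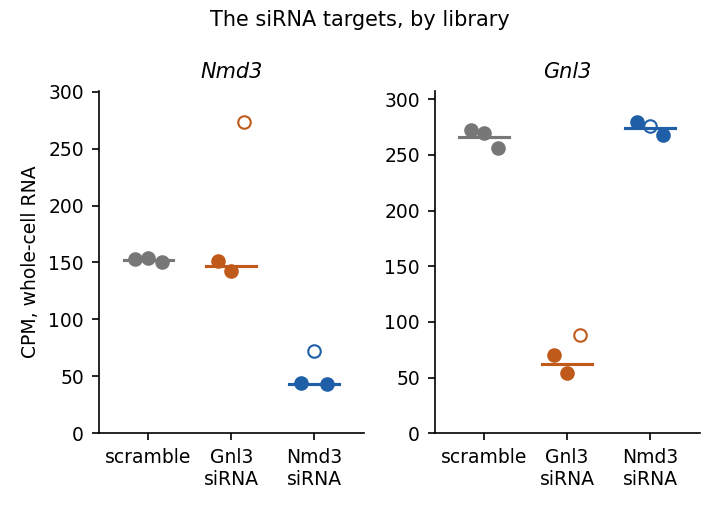
Nmd3 (left) and Gnl3 (right) in CPM of whole-cell RNA, 1 point per library, grouped by siRNA. Open points are the pair of left-out libraries and bars are means over the others. Nmd3 lies at 43.2 to 72.3 CPM after its own siRNA and Gnl3 at 54.2 to 88.2 CPM after its own, below every other library.

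Few other transcripts separated the 2 knockdowns. Of 17490 genes tested in the 7-library fit, 37 were called at an adjusted p under 0.05 (0.212%): 18 were higher after Nmd3 siRNA (0.103%) and 19 lower (0.109%), the 2 targets included. The changes of the other 35 were small, with absolute log2 values from 0.269 to 0.976. With the left-out pair counted, the 3 libraries of each siRNA did not overlap for 18 of these 35, beside 11.4% of all genes tested. The calls used the kept libraries, so a lack of overlap is no independent check of them. At an unadjusted p under 0.05, 771 genes were higher (4.41%) and 853 lower (4.88%). In the 9-library fit 0 of 17310 genes were called by edgeR (0%), with 686 higher (3.96%) and 462 lower (2.67%) at an unadjusted p under 0.05. The other 35 kept their direction in that fit, which holds the kept libraries too, and edgeR adjusted p over the 37 ran from 0.195 to 0.884. Tfcp2l1 went from 0.32 to 0.12 and Perp from -0.42 to -0.22, while Cbr3 went from 0.56 to 1.30. DESeq2 called only Gnl3 in the 9 libraries (log2 change 2.05, adjusted p = 3.01e-10). The call count rests on single libraries: it was 7 without Gnl3 replicate 1, 16 without Gnl3 replicate 2, 24 without Nmd3 replicate 1 and 983 without Nmd3 replicate 3, when Nmd3 replicate 1 alone stood for its siRNA and was assumed to vary like the other groups. Besides both targets, Impact, Mroh1, Rbm14, Ptpn14 and Inhbb remained called under each of the 13 alternative settings of the 7-library fit.

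Some genes of the p53 pathway were lower after Nmd3 than after Gnl3 siRNA, while most members did not pass the test. Of the 43 tested members of a list of p53 and its targets, 5 were called lower and 0 higher, and at an unadjusted p under 0.05 the numbers were 24 lower and 1 higher, where 4.88% and 4.41% of all genes tested were. The median log2 change over the list was -0.17, against 5.82e-05 over all genes tested. Each siRNA is given against the same scramble libraries. After Gnl3 siRNA the median of the list was 0.21 and 10 members were called higher, where 0.515% of all genes tested were called higher. After Nmd3 siRNA the median was 0.05 with 0 members called in either direction, where 29 genes (0.166%) were called in all. In the 9-library fit the median between the siRNAs was -0.17 and 0 members were called. At an unadjusted p under 0.05, 8 members were lower and 1 higher, where 2.67% and 3.96% of all genes in that fit were. Of the 7-library calls on the list, 0 were left without Gnl3 replicate 1, 1 without Gnl3 replicate 2 and 3 without Nmd3 replicate 1, and without Nmd3 replicate 3 there were 16.

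Plk2, a polo-like kinase induced by p53, showed the largest change of the list. It had 73.6 and 69.9 CPM in Gnl3 siRNA replicates 1 and 2 and 59.5 CPM in replicate 3. The Nmd3 siRNA libraries had 48.5, 29.1 and 50.5 CPM and the scramble libraries 46.1, 39.5 and 51.3 CPM, so all 3 Gnl3 siRNA libraries lay above both other groups. Plk2 fell by 0.54 between the siRNAs (SE 0.0907, adjusted p = 0.00316 by edgeR), and its change against scramble was 0.65 after Gnl3 siRNA (adjusted p = 2.81e-05) and 0.11 after Nmd3 siRNA (adjusted p = 0.697). Perp, a membrane protein of desmosomes and apoptosis, had 63.1, 61.3 and 66.3 CPM after Gnl3 siRNA, against 46.3, 56.1 and 47.2 CPM after Nmd3 siRNA and 38.5 to 41.2 CPM with scramble. The 3 groups of Perp did not overlap, with Nmd3 siRNA between the others. Its log2 change between the siRNAs was -0.42 (SE 0.0811, adjusted p = 0.0126), with 0.64 after Gnl3 siRNA and 0.22 after Nmd3 siRNA against scramble, of which the former was called.

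Trp53inp1, which promotes p53-dependent cell death and autophagy, had 170, 167 and 171 CPM after Gnl3 siRNA. Nmd3 siRNA gave 138, 71.1 and 127 CPM and scramble 110 to 125 CPM, again with every Gnl3 siRNA library on top, and the log2 change between the siRNAs was -0.36 (adjusted p = 0.0102 by edgeR). Eda2r, a receptor of the tumour necrosis factor family, had 55.2, 49.6 and 47.4 CPM after Gnl3 siRNA and 36.7, 16.9 and 41.8 CPM after Nmd3 siRNA, with 38.6 to 40.5 CPM in scramble. The siRNA groups did not overlap, and the log2 change was -0.42 (adjusted p = 0.0347). Slc19a2, a thiamine transporter, differed from the other 4 in that both siRNAs departed from scramble by about the same amount in opposite directions: 0.22 after Gnl3 and -0.23 after Nmd3 siRNA, neither called. It had 71.7, 76.6 and 53.9 CPM after Gnl3 siRNA and 51.3, 36.5 and 57.6 CPM after Nmd3 siRNA, so the left-out Gnl3 library fell within the Nmd3 range. The log2 change was -0.45 (adjusted p = 0.00578).

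The best known members of the pathway did not pass between the siRNAs in whole-cell RNA. Mdm2, the ubiquitin ligase that degrades p53, had 168, 150 and 254 CPM after Gnl3 siRNA and 136, 76.6 and 128 CPM after Nmd3 siRNA, without overlap. Its log2 change was -0.28 (SE 0.0677, adjusted p = 0.081 by edgeR), and against scramble it rose by 0.41 after Gnl3 siRNA (adjusted p = 0.00024). Cdkn1a, the cell cycle inhibitor p21, gave 50.9, 49.3 and 35.5 CPM against 47.2, 23.7 and 45.9 CPM, groups that overlap, with a log2 change of -0.12 (adjusted p = 0.704). For Trp53 itself the values were 379, 386 and 276 CPM against 301, 216 and 381 CPM, a log2 change of -0.17 (adjusted p = 0.538). Nmd3 replicate 1 was low in Trp53 beside the other kept libraries, which had 364 to 386 CPM. Ccng1 (cyclin G1, -0.28, unadjusted p = 0.000167), Zmat3 (an RNA-binding target, -0.26, unadjusted p = 0.000317) and Bbc3 (Puma, -0.33, unadjusted p = 0.00142) were lower without passing the adjustment. Gdf15, a stress cytokine, had the highest log2 change of the list at 0.28 (unadjusted p = 0.129).

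Some targets of ATF4 were higher after Nmd3 than after Gnl3 siRNA, and here too most members did not pass. The list of 46 tested members also holds Atf4 itself, the eIF2 kinase genes Eif2ak3 and Eif2ak4, and Impact, a regulator of the kinase Gcn2. Of the 46, 3 were called higher (Asns, Phgdh and Gpt2) and 1 lower (Impact). At an unadjusted p under 0.05, 25 were higher and 2 lower, where 4.41% and 4.88% of all genes tested were, and the median log2 change was 0.19. Against the shared scramble libraries the median was -0.20 after Gnl3 siRNA, with 14 members called lower where 0.297% of all genes were, and -0.02 after Nmd3 siRNA, with Impact called lower. In the 9-library fit the median was 0.24 and 0 members were called. At an unadjusted p under 0.05, 5 members were higher and 1 lower, where 3.96% and 2.67% of all genes in that fit were. Without Gnl3 replicate 1, 0 members were called higher in the 7-library design, and without Nmd3 replicate 3 there were 16.

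**Figure D2:**
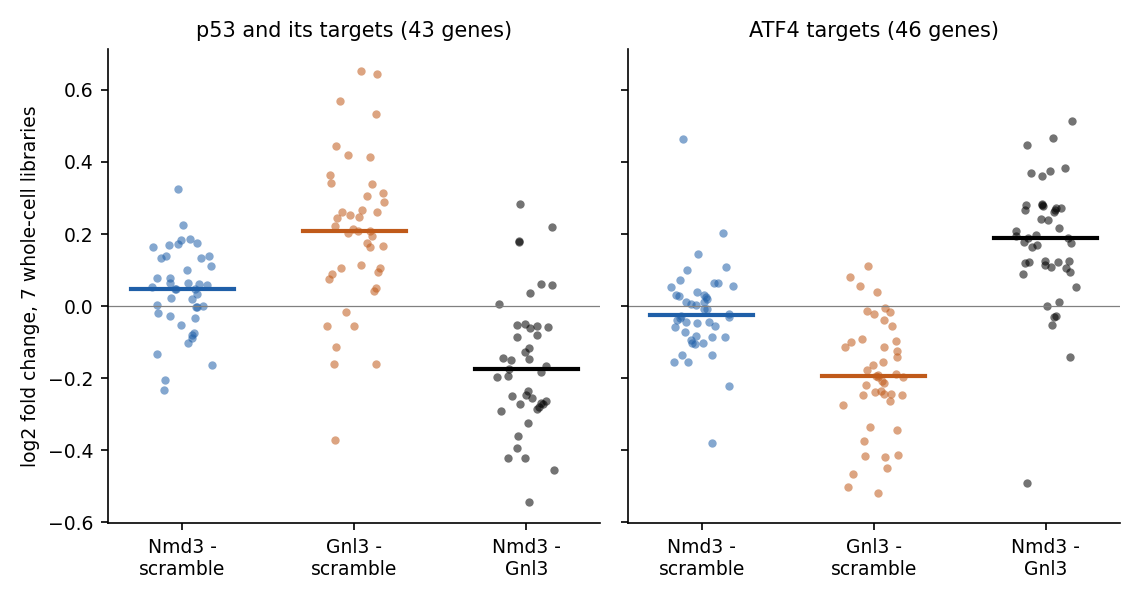
Log2 fold changes in the 7-library fit for the 43 tested p53 pathway genes (left) and the 46 tested genes of the ATF4 list (right), 1 point per gene with horizontal jitter, bars at the medians. Within each panel the columns are Nmd3 siRNA against scramble, Gnl3 siRNA against scramble, and Nmd3 against Gnl3 siRNA. The Gnl3 columns have medians of 0.21 and -0.20, and the Nmd3 columns 0.05 and -0.02.

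Asns, asparagine synthetase and a much used readout of ATF4, had 235 and 243 CPM in Gnl3 siRNA replicates 1 and 2, and 290.3 CPM in replicate 3. Nmd3 siRNA libraries had 319, 349 and 309 CPM, above all Gnl3 siRNA and all scramble libraries (274 to 298 CPM). Asns rose by 0.38 between the siRNAs (SE 0.0628, adjusted p = 0.00188 by edgeR), with -0.24 after Gnl3 siRNA against scramble (adjusted p = 0.0386) and 0.15 after Nmd3 siRNA (adjusted p = 0.386). Phgdh, the first enzyme of serine synthesis, had 122, 138 and 47.7 CPM after Gnl3 siRNA and 183, 168 and 157 CPM after Nmd3 siRNA. The siRNA groups were apart while the Nmd3 and scramble groups (159 to 172 CPM) overlapped, and the log2 change was 0.38 (adjusted p = 0.0166). Gpt2, mitochondrial alanine transaminase, had 61.2 and 70.2 CPM in Gnl3 siRNA replicates 1 and 2 and 90.7 and 80.7 CPM in Nmd3 siRNA replicates 1 and 3, a log2 change of 0.37 (adjusted p = 0.0359). Its left-out libraries went the other way, with 40.6 CPM after Gnl3 and 27.0 CPM after Nmd3 siRNA.

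Pck2, the mitochondrial phosphoenolpyruvate carboxykinase, is on no list but was called as well. It had 55, 60.9 and 21.7 CPM after Gnl3 siRNA, against 83.8, 63.5 and 73.9 CPM after Nmd3 siRNA and 75.3 to 78.2 CPM in scramble, so the Gnl3 siRNA libraries were lowest. The log2 change was 0.43 (SE 0.078, adjusted p = 0.00632 by edgeR). Other list members were higher without passing the adjustment. These were Nupr1, a stress-induced chromatin protein (0.51, unadjusted p = 0.000206), the tRNA synthetases Nars (0.27, unadjusted p = 0.000131) and Sars (0.28, unadjusted p = 0.000231), Psat1 of serine synthesis (0.28, unadjusted p = 0.000134) and Chac1, which degrades glutathione (0.36, unadjusted p = 0.000389). The mRNA of Atf4 itself had 281, 276 and 196 CPM after Gnl3 siRNA and 316, 415 and 292 CPM after Nmd3 siRNA. These groups did not overlap, as was so for 11.4% of all genes tested, and the log2 change of 0.12 did not pass (adjusted p = 0.577).

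ATF4 binds composite elements, and 1 form of them, TGATGNAA, was searched on both strands in the RefSeq windows of 300 bases around annotated starts (250 before to 50 after, build GRCm38.p6). Of 32851 windows 3.97% held a match, and of 27025 genes 4.51%. Of the 29 called genes with a window, 3 held one: Asns and Pck2, both higher after Nmd3 siRNA, and Ctdsp1, a phosphatase of RNA polymerase II, which was lower. They are shown 5′ to 3′ on the gene's strand with the match in capitals, since they are the called genes where these letters occur, Asns at chr6:7693160-7693459 (minus strand), Pck2 at chr14:55540016-55540315 (plus strand, match on the opposite strand) and Ctdsp1 at chr1:74391359-74391658 (plus strand).
Asns: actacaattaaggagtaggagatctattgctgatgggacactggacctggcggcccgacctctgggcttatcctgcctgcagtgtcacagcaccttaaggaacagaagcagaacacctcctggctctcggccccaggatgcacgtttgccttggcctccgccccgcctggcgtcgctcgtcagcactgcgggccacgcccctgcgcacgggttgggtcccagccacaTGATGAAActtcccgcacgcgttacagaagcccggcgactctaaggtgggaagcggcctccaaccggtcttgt
Pck2: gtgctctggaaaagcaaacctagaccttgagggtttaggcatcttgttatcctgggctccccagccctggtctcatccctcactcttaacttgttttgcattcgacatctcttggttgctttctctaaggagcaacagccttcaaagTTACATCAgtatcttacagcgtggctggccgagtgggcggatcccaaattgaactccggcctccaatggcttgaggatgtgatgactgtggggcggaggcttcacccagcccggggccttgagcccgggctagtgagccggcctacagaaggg
Ctdsp1: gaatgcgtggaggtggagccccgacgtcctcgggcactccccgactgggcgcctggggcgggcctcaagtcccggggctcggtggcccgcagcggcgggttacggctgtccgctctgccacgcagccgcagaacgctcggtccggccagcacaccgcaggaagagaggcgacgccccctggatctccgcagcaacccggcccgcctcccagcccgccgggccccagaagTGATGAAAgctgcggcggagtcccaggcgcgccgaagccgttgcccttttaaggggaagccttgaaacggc
A p53 half-site was found in 8.36% of windows and 9.55% of genes, and among the called genes in Celf5 and Gtse1. Of the 5 called p53 list members, Plk2, Eda2r and Slc19a2 had a window and no match in it. A match describes letters only, and its absence says nothing about the factor.

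A smaller set of genes departed from scramble mainly after Nmd3 siRNA. Impact, which binds Gcn1 and restrains the kinase Gcn2, had 193 and 189 CPM in Nmd3 siRNA replicates 1 and 3 and 105 CPM in replicate 2. Gnl3 siRNA libraries had 270, 263 and 324 CPM and scramble libraries 244 to 251 CPM, so every Nmd3 siRNA library was lowest. Impact fell by 0.49 between the siRNAs (SE 0.0598, adjusted p = 1.84e-05 by edgeR), with -0.38 after Nmd3 siRNA (adjusted p = 0.000511) and 0.11 after Gnl3 siRNA (adjusted p = 0.585) against scramble. Mroh1, a HEAT repeat protein, had 24.3, 14.9 and 23.1 CPM after Nmd3 siRNA and 37, 44.2 and 16.6 CPM after Gnl3 siRNA, with 35.6 to 41.3 CPM in scramble. Among the kept libraries the groups were apart, while the left-out Gnl3 library fell within the Nmd3 range. Its log2 change was -0.79 (SE 0.103, adjusted p = 5e-05), with -0.69 after Nmd3 siRNA against scramble (adjusted p = 0.000289). Mroh1 overlaps the ribosome assembly gene Bop1 on the other strand, and Bop1 differed by 0.08 (adjusted p = 0.716).

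Kpna6, an importin alpha that carries proteins into the nucleus, had 102, 36.6 and 107 CPM after Nmd3 siRNA and 128, 128 and 101 CPM after Gnl3 siRNA. The kept Nmd3 siRNA libraries were below the kept Gnl3 siRNA and the scramble libraries (129 to 138 CPM), the left-out Gnl3 library was at their level, and the log2 change was -0.30 (SE 0.0667, adjusted p = 0.0396 by edgeR) between the siRNAs and -0.35 against scramble (adjusted p = 0.00403). Another importin alpha, Kpna2, was called in the other direction, with 454, 447 and 436 CPM after Nmd3 siRNA and 373, 361 and 369 CPM after Gnl3 siRNA. Every Nmd3 siRNA library exceeded every Gnl3 siRNA library, and the highest scramble library had 435.6 CPM, next to the lowest Nmd3 siRNA library at 436.2 CPM. The log2 change was 0.27 (adjusted p = 0.0474). Against scramble it was -0.20 after Gnl3 siRNA (adjusted p = 0.0949) and 0.07 after Nmd3 siRNA (adjusted p = 0.709), so unlike Kpna6 its larger difference from scramble followed Gnl3 siRNA, though neither passed. Kpna2 and Kpna6 were named after their values were seen. Ckb, the brain creatine kinase, was higher after Nmd3 siRNA at 272, 402 and 263 CPM. It had 190, 206 and 73.1 CPM after Gnl3 siRNA and 206 to 218 CPM in scramble, so the Nmd3 siRNA libraries were highest, with a log2 change of 0.43 between the siRNAs (adjusted p = 0.000364) and 0.32 against scramble (adjusted p = 0.00551).

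**Figure D3:**
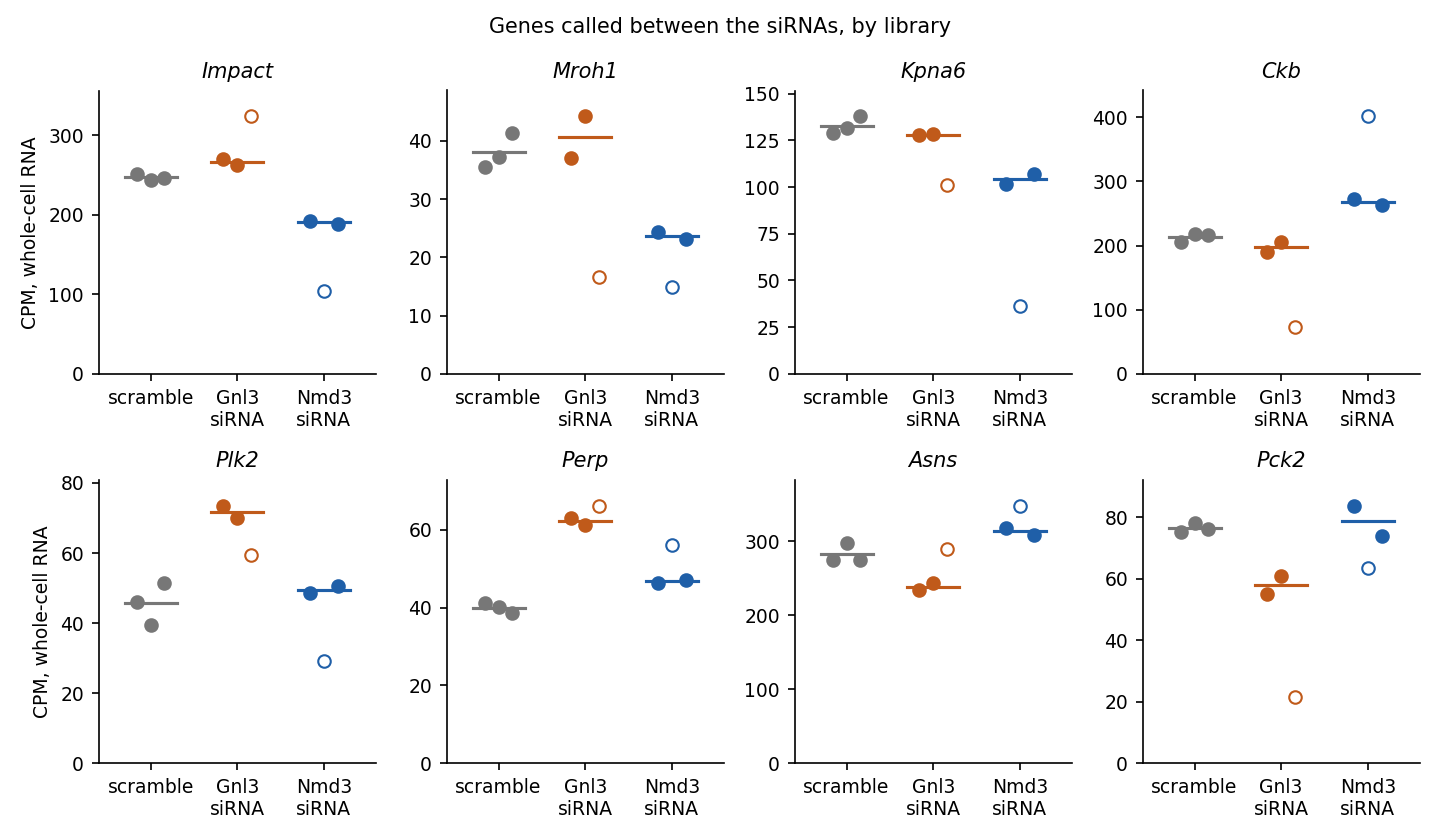
CPM of 8 called genes in the 9 whole-cell libraries, 1 point per library. Open points are the pair of left-out libraries and bars are means over the others. The bars of Impact, Mroh1, Kpna6 and Ckb (top) differ more from scramble after Nmd3 siRNA. Those of Plk2, Perp, Asns and Pck2 (bottom) differ more after Gnl3 siRNA. Perp and Asns also lie above every scramble library in all Nmd3 siRNA libraries.

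Regulators of stem cell state and early signalling were also among the called genes. Id2, an inhibitor of basic helix-loop-helix factors, had 26.3, 25.9 and 33.9 CPM after Gnl3 siRNA and 13.7, 25.8 and 19.6 CPM after Nmd3 siRNA, with 17.4 to 18.8 CPM in scramble. It fell by 0.65 between the siRNAs (SE 0.128, adjusted p = 0.0191 by edgeR), and the left-out Nmd3 library came close to the Gnl3 siRNA level. Inhbb, the activin beta B subunit, had 34.5, 33.9 and 29.0 CPM after Gnl3 siRNA and 56.5, 28.7 and 49.6 CPM after Nmd3 siRNA, with 44.1 to 51.8 CPM in scramble. The kept libraries were apart while the left-out pair was nearly equal, and the log2 change was 0.62 (SE 0.0909, adjusted p = 0.000353). Notch4, a Notch receptor, was also higher after Nmd3 siRNA (24.7 and 20.1 CPM in the kept libraries against 12.6 and 15.3 CPM, log2 change 0.66, adjusted p = 0.0186). Its left-out libraries had 13.1 CPM after Nmd3 siRNA, within the range of the kept Gnl3 siRNA libraries, and 5.13 CPM after Gnl3 siRNA.

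Of 38 tested pluripotency factors 2 were called, both higher after Nmd3 siRNA, and 14 were higher and 2 lower at an unadjusted p under 0.05 (list median 0.07). Over all genes tested 0.103% were called higher, and 4.41% were higher and 4.88% lower without adjustment. Prdm14, which represses differentiation genes, had 27, 19.6 and 28 CPM after Nmd3 siRNA and 18.6, 20.4 and 11 CPM after Gnl3 siRNA, and the left-out Nmd3 library lay among the latter. Its log2 change was 0.48 (SE 0.108, adjusted p = 0.0431 by edgeR). Tfcp2l1, a factor of the naive state, had 290.1 and 259 CPM in the kept Nmd3 siRNA libraries and 216 and 221 CPM in the kept Gnl3 siRNA libraries, a log2 change of 0.32 (adjusted p = 0.0255), with the left-out pair in the opposite order (86.5 and 157 CPM). The core factors did not pass: the log2 change was 0.25 for Nanog (adjusted p = 0.127), 0.17 for Pou5f1 (adjusted p = 0.32) and -0.04 for Sox2 (adjusted p = 0.883). Myc differed by -0.02 (adjusted p = 0.969). In bulk RNA a change in the share of cells of a type and a change in RNA per cell cannot be told apart.

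The remaining called genes had varied roles. Lower after Nmd3 siRNA were Zfp750, an epidermal zinc finger factor (-0.92, 5.18 against 9.82 CPM), Celf5, a splicing regulator (-0.69), and Rbm14, a paraspeckle protein (-0.49), which overlaps Gm21992 on its own strand and Gm21844 on the other. Ptpn14, a phosphatase of the Hippo pathway known as a p53 target but on no p53 list here (-0.44), Ptp4a3, a phosphatase also called PRL-3 (-0.40), and Ctdsp1 (-0.41) were lower as well. Ptpn14 had 132 and 134 CPM in the kept Gnl3 siRNA libraries, against 98.8 and 98.7 CPM in the kept Nmd3 siRNA libraries and 93.5 to 106 CPM in scramble (adjusted p = 0.00109 by edgeR). Its left-out libraries had 80.4 CPM after Gnl3 and 25.9 CPM after Nmd3 siRNA, so the former fell below the kept Nmd3 siRNA libraries. Gtse1, a p53-binding mitotic protein (-0.29), the receptor Ptk7 (-0.33) and the phosphatase Inpp5d (-0.32) completed this side and were named after their values were seen. As for Ptpn14, the left-out Gnl3 library fell below the kept Nmd3 siRNA libraries for Rbm14, Ptp4a3, Ctdsp1, Gtse1, Ptk7 and Inpp5d. That library had 70.8, 44.2, 22.8, 125.8, 67.0 and 114 CPM of them, in this order.

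Higher after Nmd3 siRNA were Vash1, a tubulin carboxypeptidase that restrains blood vessel growth, and Ubap1l. Vash1 had a log2 change of 0.98 at 7.31 against 3.72 CPM, and the left-out pair went the other way at 0.746 CPM after Nmd3 and 1.58 CPM after Gnl3 siRNA. Ubap1l had 9.81, 8.69 and 11.1 CPM after Nmd3 siRNA and 5.86, 6.16 and 5.04 CPM after Gnl3 siRNA, without overlap (log2 change 0.79, adjusted p = 0.0277 by edgeR). Cbr3, a carbonyl reductase, had 39.2, 58.6 and 32.6 CPM after Nmd3 siRNA and 23, 25.3 and 12 CPM after Gnl3 siRNA, with 27.9 to 31.2 CPM in scramble between them (0.56, adjusted p = 0.00993). Acadm, the medium-chain acyl-CoA dehydrogenase (0.43), Palm3, a paralemmin (0.58), Armcx2 (0.43) and Fxyd6, a regulator of the sodium pump (0.36, named after its values were seen), were the others. For Fxyd6 the left-out Nmd3 library, at 74.4 CPM, lay among the kept Gnl3 siRNA libraries (72.6 and 76.7 CPM). Armcx2 had 31.3, 34.4 and 35.2 CPM after Gnl3 siRNA, 42.5, 42.4 and 46.5 CPM after Nmd3 siRNA and 48.9 to 50.5 CPM in scramble, which places its lowest level after Gnl3 siRNA in every library (adjusted p = 0.0277).

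**Figure D4:**
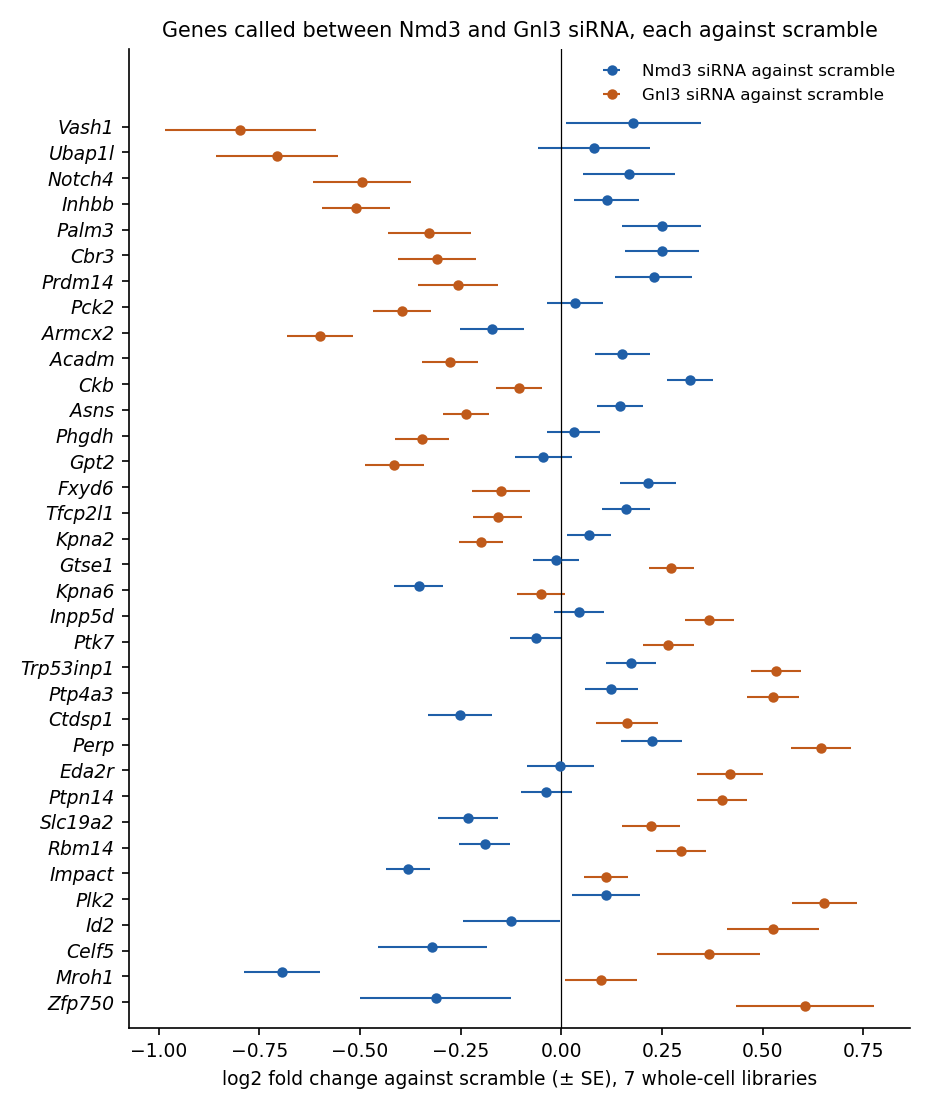
Log2 fold change of each siRNA against scramble in the 7-library fit, with SE bars, for the 35 called genes other than the targets, ordered by the difference between the siRNAs. Both series use the same 3 scramble libraries. Impact (-0.38), Mroh1 (-0.69), Kpna6 (-0.35) and Ckb (0.32) depart from 0 after Nmd3 siRNA, and Plk2 (0.65), Perp (0.64), Trp53inp1 (0.53) and Inhbb (-0.51) after Gnl3 siRNA. Perp lies at 0.22 after Nmd3 siRNA.

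Genes of ribosome assembly other than the targets showed no called difference. Of 24 tested factors of 60S export and cytoplasmic maturation, 1 was called, Nmd3 itself, and of 48 nucleolar GTPases and 60S assembly factors, also 1, Gnl3 itself. The log2 change was 0.02 for the exportin Xpo1 (SE 0.058, adjusted p = 0.957 by edgeR), 0.02 for Lsg1 (SE 0.0691, adjusted p = 0.943) and 0.12 for Eif6, which keeps free 60S subunits from joining (SE 0.0629, adjusted p = 0.559). The related GTPases Gnl2 (0.14, adjusted p = 0.487) and Gnl3l (-0.05, adjusted p = 0.855) and the nucleolar chaperone Npm1 (0.04, adjusted p = 0.895) did not pass either. Of 52 factors of the small subunit processome and 40S maturation 0 were called, with 6 higher and 0 lower at an unadjusted p under 0.05 (median 0.05), and of 23 genes of RNA polymerase I and nucleolar structure also 0.

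The cytosolic ribosomal proteins depended on the left-out libraries. In the 7-library fit the median log2 change was -0.03 over 48 large subunit and -0.07 over 33 small subunit proteins, with 0 called. In the 9-library fit the medians were 0.72 and 0.89 and 0 members were called. At an unadjusted p under 0.05, 8 and 6 members were higher, where 3.96% of all genes in that fit were. Summed over the large subunit proteins, Nmd3 replicate 2 held 92600 CPM, Gnl3 replicate 3 held 37700 CPM and the other 7 libraries 43100 to 46000 CPM. Rpl5 (-0.03), Rpl11 (0.02) and Rpl10 (-0.10), whose loading onto the 60S subunit goes with the release of Nmd3, did not pass (adjusted p = 0.91, 0.942 and 0.665). Rpl31, the tagged protein of this line, had 429 CPM in Nmd3 replicate 1 and 684 to 744 CPM in the other 6 kept libraries, and its log2 change of -0.31 had a wide error (SE 0.282, adjusted p = 0.803).

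The other lists are set beside all genes tested, of which 4.41% were higher and 4.88% lower at an unadjusted p under 0.05. Of 49 YAP, SRF and adhesion genes 0 were called, with 10 lower and 0 higher at an unadjusted p under 0.05 (median -0.08), and of 27 immediate early genes 5 were lower and 0 higher (median -0.08). DNA replication genes (45 tested) had 0 members past an unadjusted p under 0.05 in either direction, and 45 genes of mitosis and the kinetochore had 1, lower. The 11 tested mitochondrially encoded mRNAs were all below 0, with a median of -0.45, 4 at an unadjusted p under 0.05 and 0 called. Their summed level was 11100 CPM in Nmd3 replicate 1 and 18200 to 19900 CPM in the other 6 kept libraries, and the part of that library in the median was not tested. Of 16 nuclear long noncoding RNAs 7 were lower at an unadjusted p under 0.05 (median -0.16) and 0 were called. Markers of other cells differed little among the kept libraries: primitive endoderm markers summed to 575 to 627 CPM, trophoblast markers to 584 to 633 CPM and fibroblast markers to 109 to 123 CPM. Of the trophoblast markers 2 of 24, and of the fibroblast markers 4 of 26, had no count in any of the 9 libraries. For these 3 lists 0 members were called, and their part in the results was not tested.

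The same siRNA difference was measured on ER ribosomes, in libraries purified from the same lysates. There, of 18271 genes tested in a fit of 15 libraries, 155 were called higher after Nmd3 than after Gnl3 siRNA (0.848%) and 199 lower (1.09%). Of the 35 called genes other than the targets, 27 were called there. Not called there were Celf5, Ptk7, Zfp750, Inpp5d, Vash1, Id2, Tfcp2l1 (0.18, adjusted p = 0.0524 by edgeR) and Phgdh of the ATF4 list (0.20, adjusted p = 0.0619). All 35 had the same direction on ER ribosomes, beside 60.8% of all 17490 genes tested, and since both fractions come from the same lysates this is no independent check of the cultures. Of the p53 list 19 members were called lower and 0 higher (median -0.18), and of the ATF4 list 18 were called higher and 1 lower (median 0.18). Mdm2 (-0.32, adjusted p = 0.00118 by edgeR) and Cdkn1a (-0.23, adjusted p = 0.0372) were called lower there, while Trp53 was not called (-0.02, adjusted p = 0.955). Celf5 had the smallest counterpart, -0.09 on ER ribosomes (adjusted p = 0.815 by edgeR). The difference between the fractions was itself called for 1 gene (0.00547%), Nmd3. It fell by 2.27 on ER ribosomes (SE 0.0567), and the whole-cell difference was smaller by 0.50 (SE 0.0867, adjusted p = 0.0283). Nmd3 had 24.1 to 25.2 CPM on ER ribosomes after its siRNA and 120 to 125 CPM after Gnl3 siRNA. With each culture as a block, which the shared lysates call for, the difference was 0.49 and no longer called (adjusted p = 0.354).

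The pair of libraries that the submitters left out gives a second look at the 35 genes, with 1 library per siRNA and no replicate check. Their log2 ratio of Nmd3 replicate 2 to Gnl3 replicate 3 had the same sign as in the 7-library fit for 31 genes, beside 54.4% of all 16555 genes with counts in both. The ratio used CPM without TMM factors, though these libraries differ in composition. The 54.4% joins both directions, so it is no background for the higher or the lower genes alone. The 4 exceptions were Vash1 (-1.08), Tfcp2l1 (-0.86), Gpt2 (-0.59) and Inhbb (-0.02), all called higher in the 7-library fit. The ratios were larger than in the fit for some genes: 2.46 for Ckb, 2.29 for Cbr3, 1.82 for Phgdh and 1.55 for Pck2, and -1.63 for Impact. For others they were smaller, as for Asns (0.26). Genes that were not called also had large ratios: 3.11 for Eif6, 1.82 for Rpl11 and -1.10 for Xpo1. Their 7-library changes were 0.12, 0.02 and 0.02, so the size of a ratio in this pair does not measure an siRNA effect.

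**Figure D5:**
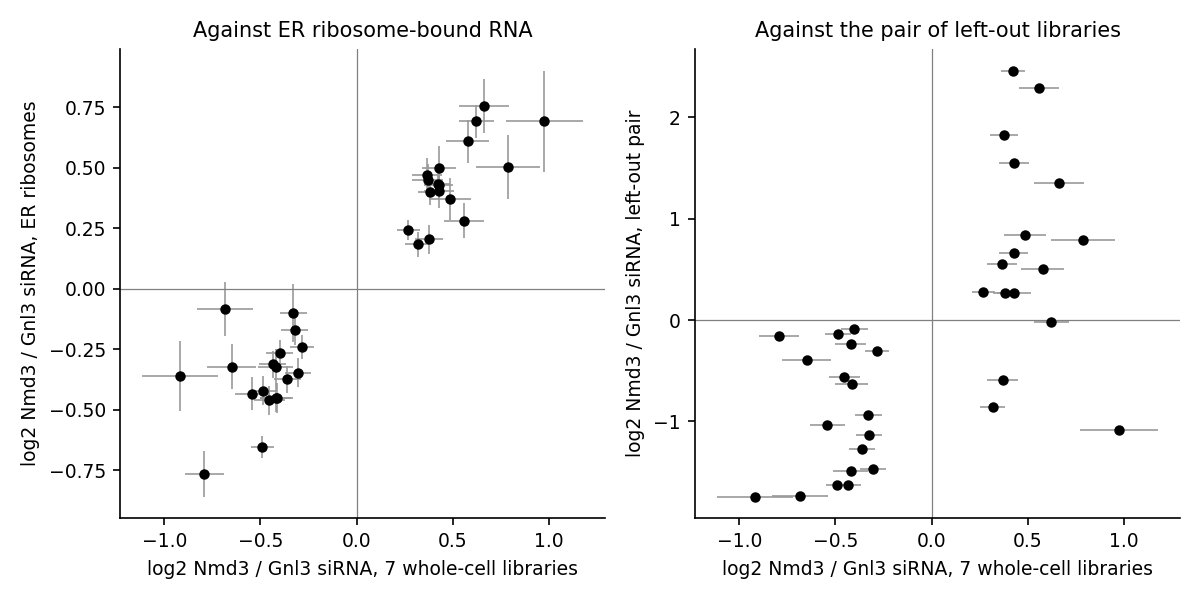
Log2 fold change between Nmd3 and Gnl3 siRNA of the 35 called genes in the 7 whole-cell libraries (horizontal, with SE) against that on ER ribosomes (left, with SE) and against the ratio of the pair of left-out libraries (right, 1 library per siRNA, no error). All 35 genes have the same sign on the left and 31 on the right.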

How the data were processed

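Gene counts of 17 polyA RNA libraries (150 base read pairs, a directional kit) were used as the authors deposited them, as raw counts per gene with no normalization. Per the submitters' processing notes the tools were STAR 2.7.9a, HTSeq 0.11.2 and DESeq2 with the build GRCm39. The annotation release and the strand setting of counting are not given in the sources used here. Reads of genes that overlap on opposite strands may therefore be mixed. Among the genes named in the text, such partners are Pbrm1 for Gnl3, Bop1 for Mroh1, Gm21844 for Rbm14, Il27ra for Palm3 and Gm10876 for Pck2. Others are Gm16105 for Celf5, Gm26574 for Ptpn14, AC167363.2 for Cdkn1a, Gm19553 for Pou5f1 and Gm16098 for Eif6. Further ones are Dnali1 for Gnl2, Fam69a for Rpl5, Tbc1d8 for Rpl31 and Gm43292 for Eif2ak3. Each file lists 55416 gene IDs and 5 lines that name no gene, which were dropped. The lines without a feature were 46.6% to 48.3% of the entries of the whole-cell libraries. GENCODE M21 names 52083 of the IDs.

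The main test was the quasi-likelihood F test of edgeR 4.0.16 under R 4.3.3, after filterByExpr and TMM, with a robust fit. Calls are genes with a Benjamini-Hochberg adjusted p under 0.05, the adjustment running over every gene in the fit. The fit of 7 libraries follows the submitters' stated exclusions. The fit of all 9 is printed beside it for the targets, the call counts and some lists, but not for each called gene. A fit of 15 libraries gave the ER ribosome contrast and the difference between fractions. Levels are counts per M gene counts (CPM), without TMM factors. SE is the absolute log2 change divided by the square root of F. The scripts were tested on simulated data.

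Named genes are Nmd3 and Gnl3, the 14 highest and 14 lowest log2 changes among called genes with a symbol and a mean of at least 5 CPM in 1 group, up to 6 called members of each of 42 lists, and 18 fixed genes. A further 6 were named after their values were seen, as were the unadjusted examples from the p53 and ATF4 lists. The samples, the lists and these rules were chosen with earlier results of these data known. Each list is described by counts and its median, with no set test. Alternatives were library totals, DESeq2 1.42.0, other filters, a fit without scramble, a replicate block and leaving out each library. For the difference between fractions the block was the culture, not the replicate number. Residuals of equal replicate numbers correlated by 0.05 in the 7 libraries and by -0.11 to 0.08 in the 9. In the 7 only replicate 1 was kept for both siRNAs, and the 9 include the pair that stood apart. These values therefore cannot decide whether numbers pair the siRNA groups, and the main fit used no pairing of them. Whole-cell and ER libraries of equal number come from 1 lysate and are paired by design. Promoter windows are from RefSeq, build GRCm38.p6.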

Additional observations from a re-analysis of the deposited data

Results flagged for a closer look

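The decrease of Nmd3 between the siRNAs differed between the fractions: it was smaller in whole-cell RNA than on ER ribosomes by 0.5 on the log2 scale (edgeR interaction, adjusted p = 0.0283, 15 libraries). With the culture as a block the adjusted p was 0.354.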

How the results depend on the processing

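The 37 calls of the 7-library fit were 122 with no filter on low counts, 16 with only the Nmd3 and Gnl3 libraries in the fit and 63 with a replicate block, and leaving out each library in turn gave 7 to 983. In the 9-library fit, 0 calls became 1 (Gnl3) with library totals only, with DESeq2 and with no filter on low counts, and stayed 0 in the other settings. The 1 call of the difference between fractions became 0 with each culture as a block and 0 with all 17 libraries. With all 9 whole-cell libraries the p53 members lower at an unadjusted p under 0.05 went from 24 to 8, and the ATF4 list members higher from 25 to 5. Without each replicate in turn they were 16 to 24 and 16 to 29. The 5 called p53 members were 9 with no filter, 2 with only the Nmd3 and Gnl3 libraries, 0 with all 9 libraries and 0 to 16 without each replicate. The 3 called ATF4 targets were 5 with library totals, 6 with DESeq2, 10 with no filter, 1 with only the Nmd3 and Gnl3 libraries, 9 with the replicate block, 0 with all 9 libraries and 0 to 16 without each replicate. No called gene reversed under any setting run, and the cause of the other changes was not tested. Alternatives for unadjusted counts and for the ER library Nmd3 replicate 2 were added after seeing the data. With 2 kept libraries per siRNA, the precision of each change rests largely on the spread shared with the 3 scramble libraries.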
